A study of Mus musculus with 18 samples.

Results

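Poly(A) RNA of mouse embryonic fibroblasts was sequenced 48 h after doxycycline induced the neuronal transcription factors Brn2 (gene Pou3f2) and Myt1l, either alone (called BM) or together with Ikzf1 and Ikzf4 (called BM/Ikzf1/4). These are 6 of the 18 samples of the series, 3 per group, chosen by their titles. All 6 libraries came from C57BL/6 fibroblasts of the mouse line R26-M2rtTA, which carries the doxycycline-dependent transactivator. Each factor was delivered by a lentiviral vector. Fibroblasts without vectors or without doxycycline were not among these libraries, so each difference given here is between cells that all received Brn2 and Myt1l. The BM/Ikzf1/4 cells also received the vectors of Ikzf1 and Ikzf4. Whether BM cells received other vectors in their place is not given here. The added factors and the added vectors therefore cannot be told apart. The labels do not say that replicates came from separate cultures or embryos, so p-values measure only the spread between these 6 libraries, which may be technical.

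Brn2 and Myt1l are known for their part in converting fibroblasts to neurons. Ikzf1 (Ikaros) and Ikzf4 (Eos) are zinc finger proteins best known from lymphocytes. Ikaros binds DNA at sites with a core of TGGGAA and can recruit the nucleosome remodelling and deacetylase complex, NuRD. In the developing retina and cortex Ikaros is known as a factor of early-born neurons. The comparison asks which genes change when this pair joins Brn2 and Myt1l early in reprogramming.

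The 3 BM libraries held 34966344 to 44270426 estimated reads and the 3 BM/Ikzf1/4 libraries 38910839 to 41871989. The 10 most abundant transcripts took 4.59% to 4.75% of reads in BM and 3.93% to 4.11% in BM/Ikzf1/4, so these shares did not overlap between groups. Across transcripts, the correlation of log2 CPM (estimated reads of a transcript scaled to a common library size) was 0.905 to 0.915 within groups and 0.890 to 0.902 between groups, a description only, since transcripts are not independent. The first principal component, with 27.9% of the variance, separated the groups, and the second, with 20.1%, spread the BM libraries, with replicate 2 at -144 and replicates 1 and 3 at 97.9 and 74.1.

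Values per library exist for transcripts, and values per gene come from the authors' deposited table, which holds 1 fold change per gene. No table at hand links transcripts to gene names, so the transcripts below are given by identifier alone. Of 43526 transcripts tested, edgeR's quasi-likelihood test with Benjamini-Hochberg adjustment called 3095, or 7.11%, at an adjusted p under 0.05. Of these, 1847 were higher (4.24% of those tested) and 1248 lower (2.87%) with Ikzf1 and Ikzf4, and 924 had moved by more than 1 on the log2 scale. DESeq2 called 7529 on the same counts, and edgeR without the filter on low counts called 1849. A test against a fold of 1.5 called 269, and a fit with the replicate number as a block called 8. With upper quartile scaling, 48.1% of 3085 calls were higher, against 59.7% in the fit with TMM scaling. Leaving out 1 library lowered the number of calls each time, to 1212, 1559 and 1701 without BM replicates 1, 2 and 3, and to 1114, 728 and 975 without BM/Ikzf1/4 replicates 1, 2 and 3. Of 117135 transcripts quantified, 61 had estimates rounding to 0 in every BM library and at least 20 in each BM/Ikzf1/4 library. Another 43 showed the reverse. These are estimates of single transcripts, not counts of genes switched on or off.

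Called transcripts that averaged 5 CPM or more and had reads in every library were ranked by size, and the first was ENSMUST00000076700.10. It stood at 0.983, 4.43 and 3.29 CPM in the BM libraries and at 1240, 941 and 908 CPM with Ikzf1 and Ikzf4. All 3 libraries of one group lay far above all 3 of the other. The fitted difference was 8.49 in log2 (SE 0.46, edgeR adjusted p 0.00215). Here and below, the SE of a transcript was derived from the F statistic of the edgeR test. This transcript could not be linked to a gene by its identifier. Its difference is near the rises of the added Ikzf1 (7.76) and Ikzf4 (8.54) in the authors' deposited table. Outside the added factors, the largest rise there at a mean of at least 100 was 3.26 (Vwc2l). ENSMUST00000068423.9 rose from 1.58, 1.55 and 1.05 to 13.9, 17.6 and 14.95 CPM (a log2 difference of 3.47 with SE 0.21, edgeR adjusted p 0.00237). ENSMUST00000049463.3 rose from 2.30, 2.50 and 2.97 to 26.3, 26.4 and 22.5 CPM (a log2 difference of 3.27 with SE 0.13, edgeR adjusted p 0.00148). Both were low in every BM library and close to each other within each group. The 3 next rises, ENSMUST00000169470.1, ENSMUST00000033556.3 and ENSMUST00000035799.5, had log2 fold changes of 3.25, 3.06 and 3.03.

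The largest fall was that of ENSMUST00000049209.12, from 30.7, 35.01 and 41.6 CPM to 3.35, 4.32 and 4.59 CPM (a log2 difference of -3.13 with SE 0.17, edgeR adjusted p 0.00215). ENSMUST00000018061.6 fell from 47.9, 55.3 and 73.6 to 15.8, 5.48 and 6.58 CPM (a log2 difference of -2.66 with SE 0.44, edgeR adjusted p 0.0232). Its BM/Ikzf1/4 replicate 1 was the highest of its group and still below every BM library. ENSMUST00000025110.4 fell from 35.7, 45.4 and 41.8 to 8.46, 7.16 and 7.03 CPM (a log2 difference of -2.44 with SE 0.12, edgeR adjusted p 0.00186). The other falls named by the same rule, ENSMUST00000106222.8, ENSMUST00000173932.7 and ENSMUST00000224228.1, had log2 fold changes of -2.93, -2.50 and -2.44. ENSMUST00000018061.6 lost its call when any library but BM/Ikzf1/4 replicate 1 was left out (edgeR adjusted p 0.0671 to 0.0904). ENSMUST00000106222.8 lost its call without replicate 1 or 2 of either group (edgeR adjusted p 0.0679 to 0.0902), and the other 10 named transcripts kept theirs in each of these 6 fits. With the replicate number as a block, 11 of the 12 named transcripts lost their call. The groups overlapped for none of these 12 transcripts, while they did not overlap for 31.2% of all tested transcripts. The 12 were chosen by their size in this comparison, so that count is a description.

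**Figure D1:**
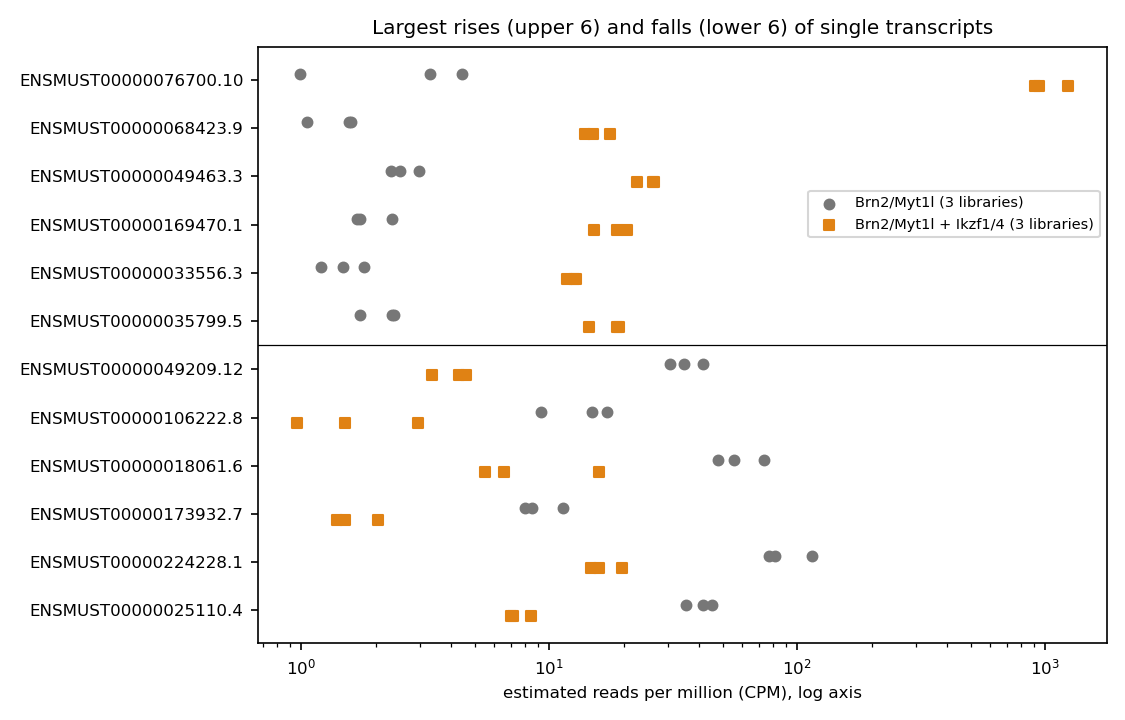
Each point is the CPM of 1 library (log axis) for the 6 largest rises (upper rows) and the 6 largest falls (lower rows) among called transcripts with a mean of 5 CPM or more and reads in every library. Grey circles are the 3 BM libraries and orange squares the 3 BM/Ikzf1/4 libraries, and in each row the 2 sets of points do not overlap.

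At the level of genes, 30.6% of the 16757 genes with an adjusted p were called in the authors' deposited table, 15.3% higher and 15.4% lower with Ikzf1 and Ikzf4. In what follows, a gene rose or fell if it had a DESeq2 adjusted p under 0.05, and its value is the log2 fold change with its standard error, all from the authors' deposited table. Most of these changes were small: the median size of a called change in the authors' deposited table was 0.37, and 361 of the called genes exceeded 1. Beyond 2, the authors' deposited table held 25 rises and 6 falls, and beyond 1.5 it held 73 and 26. These counts include the added Ikzf1 and Ikzf4. The 50 functional gene lists are read against the shares of 15.3% and 15.4%. In these bulk samples, fewer cells of a type and less RNA per cell cannot be told apart.

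**Figure D2:**
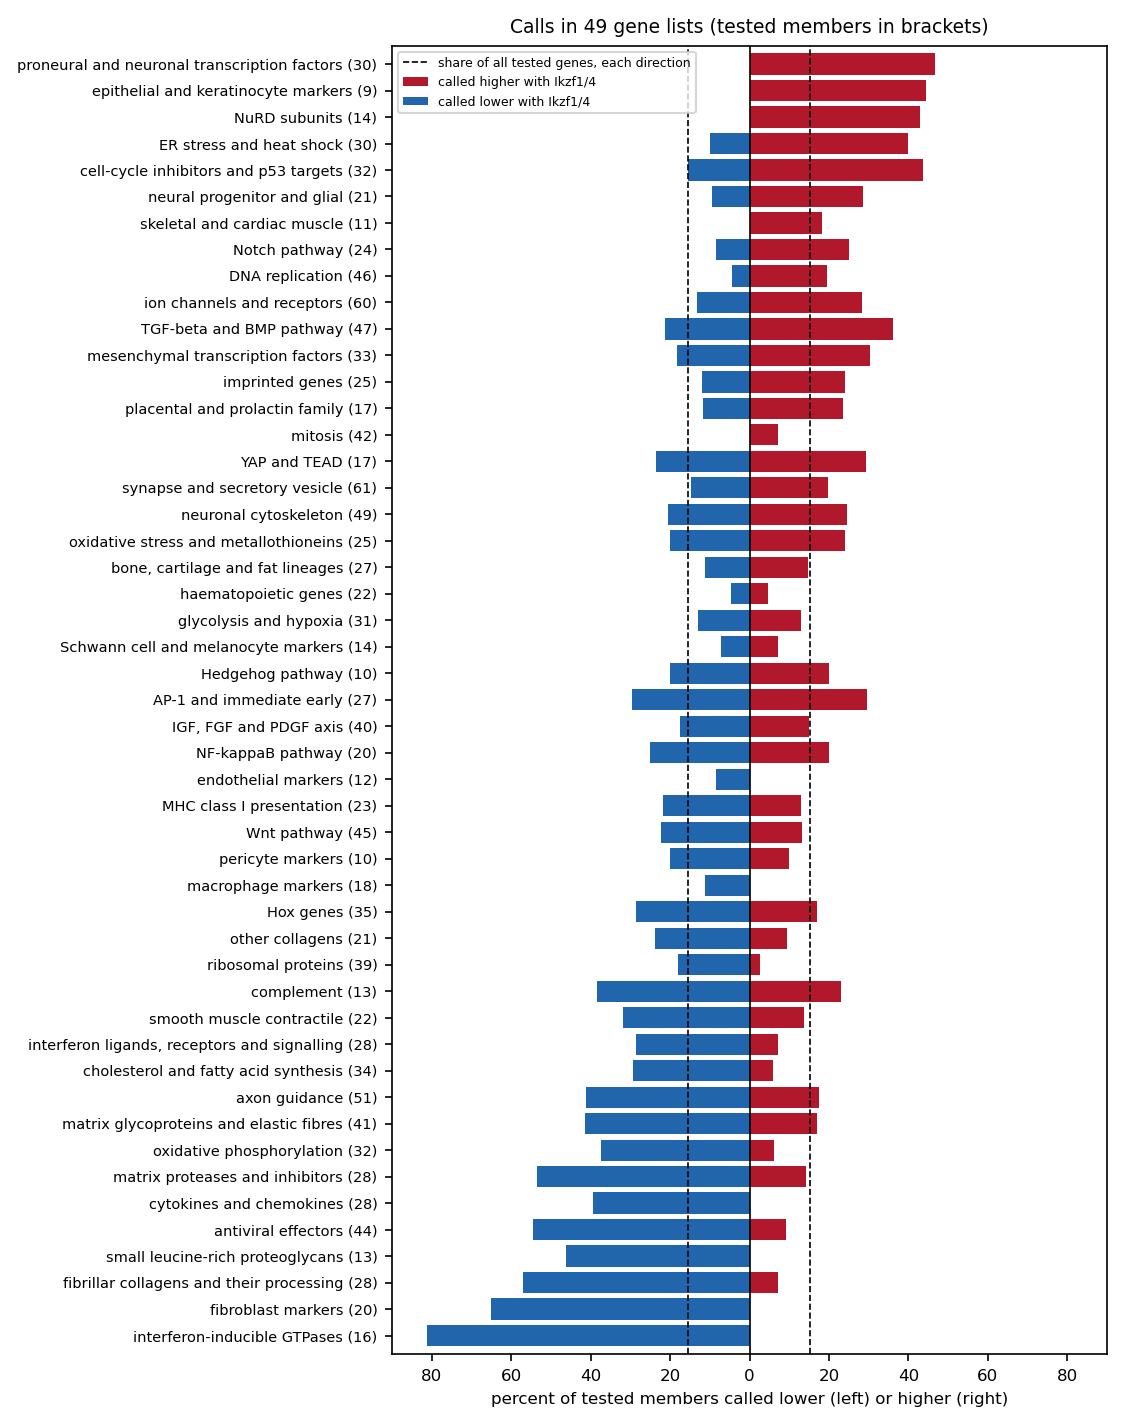
Bars give the percent of tested members of 49 gene lists called higher (right, red) or lower (left, blue) with Ikzf1/4 in the authors' deposited table, ordered by the difference between both, with the share of all tested genes as dashed lines at 15.3% and 15.4%. Interferon-inducible GTPases (81.2% lower) and fibroblast markers (65.0% lower) lie at one end, and proneural and neuronal transcription factors (46.7% higher) at the other.

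Ikzf1 and Ikzf4 themselves rose by 7.76 and 8.54 in the authors' deposited table, while Pou3f2, the gene of Brn2, stood at -0.05 and did not pass the test. Myt1l, delivered by a vector in both groups, rose by 0.50 (SE 0.17) with a DESeq2 adjusted p of 0.0157 in the authors' deposited table, so 1 of the factors common to both groups was itself at a higher level with Ikzf1 and Ikzf4. The part of this difference in the results below was not tested. Reads from vectors and from the cells' own genes were not separated. The relatives Ikzf2 and Ikzf5 did not pass the test, at -0.19 and -0.00 in the authors' deposited table. Among 14 subunits of NuRD, 6 rose, none fell and the median was 0.08 in the authors' deposited table. The largest rise was that of the remodelling subunit Chd5 (ENSMUSG00000005045), a gene known from neurons, by 1.49 in the authors' deposited table (SE 0.12 and a DESeq2 adjusted p of 8.01e-33). The other remodelling subunits Chd3 and Chd4 rose by 0.29 (SE 0.05) and 0.27 (SE 0.05) in the authors' deposited table. The scaffold subunits Gatad2b (0.39, SE 0.05), Mta3 (0.37, SE 0.08) and Gatad2a (0.15, SE 0.06) also rose there, whereas the deacetylase genes Hdac1 and Hdac2 did not pass, at 0.10 and -0.02 in the authors' deposited table.

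Transcription factors of neurogenesis had the highest share of rises after the short list of the added factors and their relatives. Of 30 tested members, 14 rose (46.7%) and none fell, and their median was 0.27 in the authors' deposited table. Another 18 of the 48 listed had no adjusted p, 1 of them with no reads, and over the 47 members with a fold change the median was 0.10 in the authors' deposited table. Isl1, a factor of motor and sensory neurons and of retinal ganglion cells, rose by 2.21 (SE 0.21) and Pou4f1, a factor of sensory neurons, by 1.03 (SE 0.20) in the authors' deposited table. Onecut2, a homeodomain factor of early neurons, rose by 1.33 in the authors' deposited table (SE 0.10 and a DESeq2 adjusted p of 3.04e-37). Zic1 and Zic2, zinc finger factors of neural precursors, rose by 0.72 (SE 0.15) and 0.83 (SE 0.21), and the nuclear receptor Nr2f2 by 0.38 (SE 0.06), in the authors' deposited table. Several of these genes were at low levels, with authors' means of 84.6 normalised counts for Isl1, 65.9 for Pou4f1 and 13.9 for Zic2 in the authors' deposited table. Only 11 of the 30 tested members had a mean of at least 100, and falls were rarely called among all genes at the lowest levels. Neurod1 and Neurog1 had means of 2.61 and 0.164 and no adjusted p in the authors' deposited table.

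Genes of neural progenitors and glia were mixed, with 6 of 21 tested members higher and 2 lower. The 2 that fell are also genes of fibroblasts: Vim (vimentin) at -0.59 (SE 0.06) and Cdh2 (N-cadherin) at -0.51 (SE 0.06) in the authors' deposited table. Slc1a2, a glutamate transporter of glia, rose by 1.16 (SE 0.18) and Pax6, a factor of neural progenitors at a mean of 11.0, by 0.69 (SE 0.20) in the authors' deposited table. Nes (nestin) did not pass, at 0.10 in the authors' deposited table.

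Genes of neuronal excitability moved more often up than down. Of 60 tested ion channels and receptors, 17 rose (28.3%) and 8 fell (13.3%), with a median of 0.08 in the authors' deposited table. Subunits of glutamate receptors were among the largest rises: Gria2 (ENSMUSG00000033981), of AMPA receptors, rose by 2.08 (SE 0.11) and Grik2, of kainate receptors, by 2.06 (SE 0.09) in the authors' deposited table. Scn3b, an accessory subunit of sodium channels, rose by 2.57 in the authors' deposited table (SE 0.10 and a DESeq2 adjusted p of 1.93e-149). Potassium channel genes Kcnj3 and Kcnd2 rose by 2.19 (SE 0.20) and 0.74 (SE 0.06), while, outside the list, the GABA receptor subunit Gabrb1 fell, at -1.70 (SE 0.09) in the authors' deposited table.

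Synaptic and secretory vesicle genes were called at shares near those of all genes, with 12 of 61 tested members higher (19.7%) and 9 lower (14.8%) and a median of -0.11 in the authors' deposited table. Cbln2 (ENSMUSG00000024647), a secreted organiser of synapses, rose by 3.14 (SE 0.12), and Lrrtm2, a postsynaptic adhesion protein, by 1.37 (SE 0.14) in the authors' deposited table. Of the synaptotagmin genes, which encode calcium sensors of vesicles, Syt4 fell, at -2.32 (SE 0.11), Syt13 at -0.79 (SE 0.12) and Syt1 at -0.47 (SE 0.06) in the authors' deposited table. Unc13a, which primes vesicles for release, fell by 0.94 (SE 0.14) in the authors' deposited table. Syp and Snap25, defining components of synaptic vesicles and their fusion machinery, were at means of 20.3 and 5.42 and did not pass, at -0.31 and -0.30 in the authors' deposited table.

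Genes of the neuronal cytoskeleton were called in both directions, with 12 of 49 tested members higher (24.5%), 10 lower (20.4%) and a median of -0.01 in the authors' deposited table. Sncg (gamma-synuclein) rose by 2.65 (SE 0.12), the neuronal RNA-binding protein gene Elavl2 by 1.25 (SE 0.14) and the microtubule-associated Map7d2 by 1.03 (SE 0.10) in the authors' deposited table. The tubulin gene Tubb4a fell, at -1.46 (SE 0.18), and the collapsin response mediators Dpysl4 and Dpysl3 at -1.22 (SE 0.15) and -0.77 (SE 0.04) in the authors' deposited table. Neuronal markers Map2 (0.06, SE 0.06), Stmn2 (-0.12, SE 0.11), Gap43 (-0.09, SE 0.11) and Dcx (-0.01, SE 0.18) did not pass the test in the authors' deposited table. Dcx, expressed in migrating young neurons, had a mean of only 6.99 normalised counts over both groups in the authors' deposited table.

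Axon guidance genes fell more often than they rose: 21 of 51 tested members were lower (41.2%) and 9 higher (17.6%), with a median of -0.12 in the authors' deposited table. The receptors Robo2 and Nrp1 fell, at -1.31 (SE 0.07) and -0.85 (SE 0.06), while Slit2, a ligand of Robo receptors, rose by 0.73 (SE 0.06) in the authors' deposited table. The ephrin receptors Epha4 and Ephb4 fell, at -0.61 (SE 0.05) and -0.63 (SE 0.07), and the secreted semaphorin Sema3e at -0.54 (SE 0.07) in the authors' deposited table. Outside the list, the ephrin receptor Epha6 rose by 2.24 (SE 0.17) in the authors' deposited table.

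**Figure D3:**
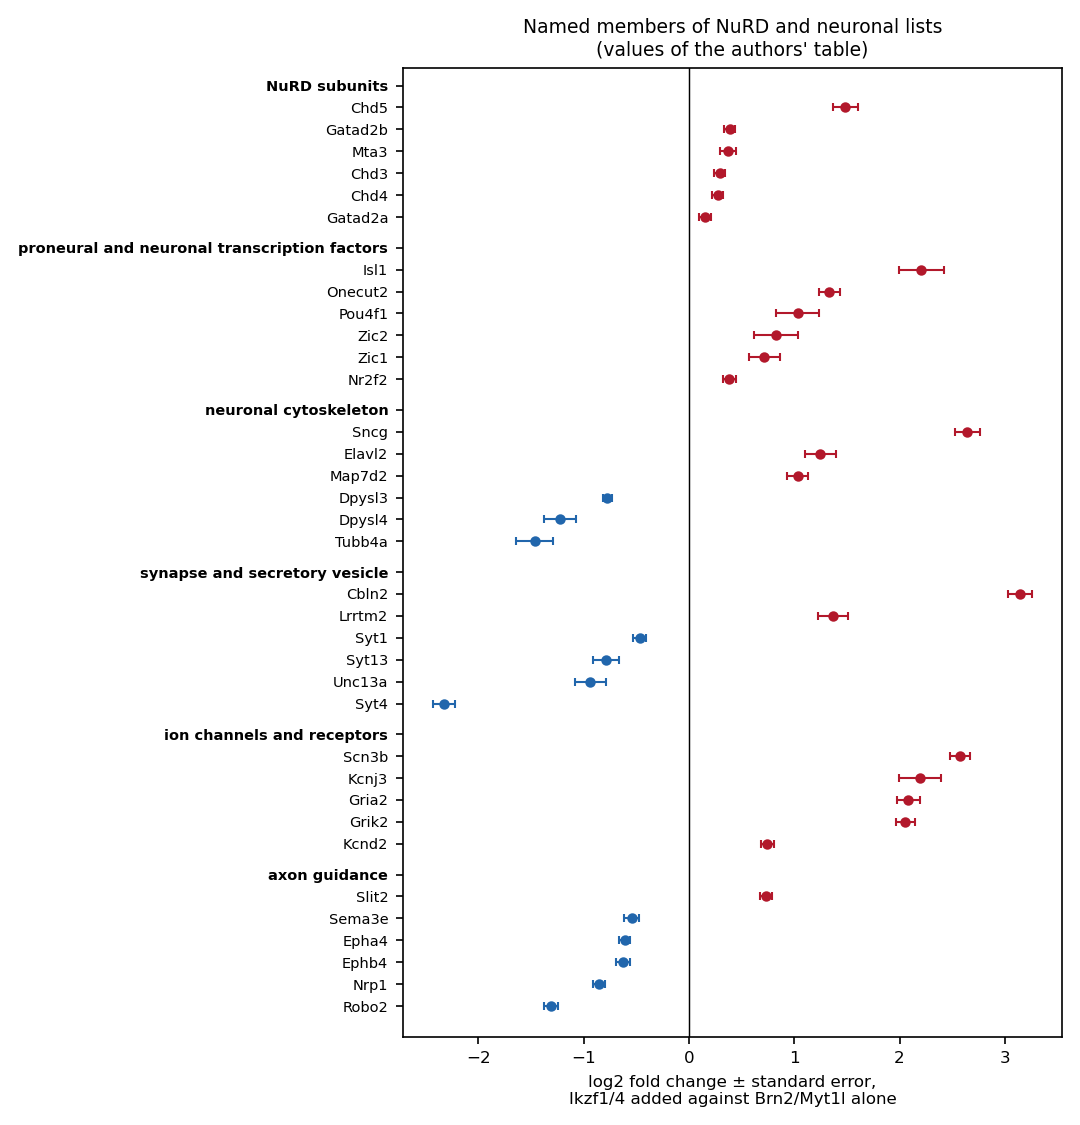
Points are log2 fold changes in the authors' deposited table (x axis, bars standard errors) of called members among those with the smallest adjusted p in 6 lists, red where higher and blue where lower with Ikzf1/4. All points shown of the NuRD list, the neuronal transcription factors and the channels lie to the right of 0, though 8 of 60 channels fell, while the other 3 lists have points on both sides, from Cbln2 at 3.14 to Syt4 at -2.32.

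The interferon system moved downwards, most of all at its effector end. Interferons are cytokines that signal through Jak kinases and Stat and Irf factors to a large set of antiviral genes. Of 28 tested genes of ligands, receptors, sensors and signalling, 8 fell (28.6%) and 2 rose (7.14%), with a median of -0.14 in the authors' deposited table. Stat2, which forms an interferon-activated factor with Irf9, fell, at -0.85 (SE 0.09), and Usp18, an interferon-induced inhibitor of the receptor, at -0.92 (SE 0.10) in the authors' deposited table. The sensors of foreign RNA Tlr3, Ifih1 and Ddx58 fell, at -0.82 (SE 0.12), -0.75 (SE 0.09) and -0.38 (SE 0.06) in the authors' deposited table. Stat3 rose by 0.28 (SE 0.06) in the authors' deposited table. The partner Irf9 (0.07, SE 0.07) and the kinase Jak1 (-0.01, SE 0.05) did not pass in the authors' deposited table. The ligand gene Ifnb1 was at a mean of 6.80 normalised counts and did not pass either, at -0.07 (SE 0.16) in the authors' deposited table.

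Of 44 tested antiviral effectors, 24 fell (54.5%) and 4 rose (9.09%), with a median of -0.37 in the authors' deposited table. Oasl2, of the oligoadenylate synthetase family that detects double-stranded RNA, fell by 1.94 in the authors' deposited table (SE 0.11 and a DESeq2 adjusted p of 3.38e-67). The ubiquitin-like modifier Isg15 fell, at -1.27 (SE 0.12), and Ifitm2 and Ifitm3, membrane proteins that hinder viral entry, at -1.19 (SE 0.07) and -1.19 (SE 0.11) in the authors' deposited table. Rtp4 and Parp14 fell, at -1.08 (SE 0.11) and -0.75 (SE 0.07) in the authors' deposited table. The 4 rises, named after their values were seen, were Oasl1 (0.81), Ifit1bl1 (0.77), Dtx3l (0.25) and Helz2 (0.21) in the authors' deposited table. The defining antiviral genes Rsad2 (-0.14, SE 0.14) and Eif2ak2 (-0.02, SE 0.06), which encode viperin and the RNA-activated kinase PKR, did not pass in the authors' deposited table.

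The interferon-inducible GTPases, which attack the membranes around intracellular pathogens, had the highest share of falls of all 50 lists. Of 16 tested members 13 fell (81.2%), none rose, and all 16 fold changes were below 0, with a median of -0.58 in the authors' deposited table. Gbp3 (ENSMUSG00000028268) fell, at -2.19 (SE 0.14) and Tgtp1 (ENSMUSG00000078922) at -1.80 (SE 0.19) in the authors' deposited table. Gbp7, Irgm2, Gvin1 and Irgm1 fell, at -0.81 (SE 0.07), -0.78 (SE 0.08), -0.77 (SE 0.09) and -0.60 (SE 0.08) in the authors' deposited table. Members of the Gbp, Irgm, Tgtp, Oas and Ifitm families have close copies, between which the quantification can exchange reads, so the value of a single copy is uncertain.

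Promoters of a few of these genes are shown because they hold an element through which interferon is known to act. The core of the interferon-stimulated response element was searched as GAAA, any 2 bases and GAAA again, on both strands, overlapping matches included, in the 250 bases upstream of the first listed start in RefSeq (GRCm38.p6). It is present in 3.04% of 27025 promoters of the same length. Of promoters at hand, 9 of 10 tested interferon-inducible GTPases and 14 of 35 tested antiviral effectors held it. Among antiviral effectors it was in 9 of 18 that fell and in 5 of 17 that did not, and among the GTPases in 8 of 9 that fell and in 1 of 1 that did not. In the 2 lists with promoters for over 80% of tested members it was in 3 of 23 genes of interferon signalling and 3 of 20 of MHC class I presentation. Over all genes it was in 3.98% of the promoters at hand of those that fell and in 2.75% of those tested. Promoters were at hand for 62.5% of the tested GTPases and 79.5% of the tested antiviral effectors, under the 80% needed, so the shares of these lists are void as a check of the lists and describe only the sequences read. The 200 bases upstream of the start are printed 5′ to 3′ on the gene's strand, with matches in capitals.
Isg15 (chr4:156200819-156201018, minus strand): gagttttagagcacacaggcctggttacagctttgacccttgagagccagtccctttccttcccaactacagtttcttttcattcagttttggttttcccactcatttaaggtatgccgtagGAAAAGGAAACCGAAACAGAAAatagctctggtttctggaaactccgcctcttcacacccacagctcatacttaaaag
Gbp3 (chr3:142559844-142560043, plus strand): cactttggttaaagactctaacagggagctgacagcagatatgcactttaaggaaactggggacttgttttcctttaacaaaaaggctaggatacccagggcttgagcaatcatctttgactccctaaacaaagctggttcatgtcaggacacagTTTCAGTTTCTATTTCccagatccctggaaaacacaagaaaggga
Irgm1 (chr11:48871421-48871620, minus strand): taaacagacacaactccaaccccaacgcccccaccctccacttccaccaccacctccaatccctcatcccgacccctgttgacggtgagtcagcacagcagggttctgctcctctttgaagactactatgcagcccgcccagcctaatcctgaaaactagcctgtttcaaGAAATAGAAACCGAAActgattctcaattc
Tgtp1 (chr11:48992247-48992446, minus strand): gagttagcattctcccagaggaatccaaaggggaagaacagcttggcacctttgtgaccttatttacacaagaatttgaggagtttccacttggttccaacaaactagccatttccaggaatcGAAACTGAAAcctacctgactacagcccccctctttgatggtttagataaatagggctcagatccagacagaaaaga
These 4 were chosen among named genes with a match after their values were seen. Isg15 has 3 overlapping matches, Gbp3 and Irgm1 have 2 and Tgtp1 has 1. Oasl2, the antiviral effector with the largest fall, had none in its 200 bases.

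Antigen presentation by MHC class I had 5 of 23 tested members lower (21.7%), 3 higher (13.0%) and a median of 0.03 in the authors' deposited table. Its immunoproteasome parts Psmb10, Psme1 and Psme2 fell, at -0.80 (SE 0.13), -0.31 (SE 0.07) and -0.23 (SE 0.08), while Erap1, which trims peptides, and Tapbp, which loads them, rose by 0.82 (SE 0.11) and 0.27 (SE 0.07) in the authors' deposited table. The class I molecules H2-K1 and H2-D1 and their light chain B2m did not pass, at 0.03, 0.04 and 0.16 in the authors' deposited table. H2-Q6, which has near-identical copies, rose by 0.95 (SE 0.22) in the authors' deposited table.

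None of 28 tested cytokine and chemokine genes rose and 11 fell (39.3%), with a median of -0.23 in the authors' deposited table. The monocyte attractants Ccl7 and Ccl2 fell, at -1.62 (SE 0.10) and -1.59 (SE 0.12), and Ccl20 at -1.74 (SE 0.16) in the authors' deposited table. Cxcl14, Cx3cl1 and Csf1, the growth factor of macrophages, fell, at -0.60 (SE 0.12), -0.55 (SE 0.11) and -0.28 (SE 0.06) in the authors' deposited table. The NF-kappaB pathway, a common regulator of such genes, had 4 of 20 tested members higher and 5 lower. Vcam1 fell, at -0.60 (SE 0.05) and Tnfaip2 at -0.63 (SE 0.10), whereas Icam1 rose by 0.71 (SE 0.10) and the subunit genes Rel and Relb by 0.69 (SE 0.11) and 0.38 (SE 0.11) in the authors' deposited table. Of 13 tested complement genes 5 fell (38.5%) and 3 rose. The proteases C1s1 and C1ra fell, at -1.16 (SE 0.16) and -0.84 (SE 0.15), while Cd55 and Cd59a, membrane inhibitors of complement, rose by 0.62 (SE 0.08) and 0.43 (SE 0.09) in the authors' deposited table.

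Macrophages can express many of these genes, so their markers were read alongside. All 18 were tested, with authors' means from 115 (Aif1) to 13089 normalised counts (Lyz2), so their RNA was present. None rose, 2 fell (Mrc1 at -0.44, SE 0.11, and C1qa at -0.17, SE 0.07) and the median was -0.09 in the authors' deposited table. Csf1r, Lyz2 and Tyrobp did not pass, at -0.05, 0.04 and 0.00 in the authors' deposited table. Summed levels per group could not be given, since the authors' deposited table has no value per library.

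In each of 5 lists of extracellular matrix genes more members fell than rose, though in 3 of them fewer than 50% fell. Fibrillar collagens give tissue its tensile strength and are processed and crosslinked by enzymes of the same list, in which 16 of 28 tested members fell (57.1%) and 2 rose (7.14%), with a median of -0.37 in the authors' deposited table. Col3a1 (ENSMUSG00000026043) fell by 1.29 in the authors' deposited table (SE 0.06 and a DESeq2 adjusted p of 1.22e-86). Col5a2 fell, at -0.75 (SE 0.07), the crosslinking oxidases Lox and Loxl2 at -0.76 (SE 0.05) and -0.46 (SE 0.05), in the authors' deposited table. The prolyl hydroxylase gene P4ha3 and the collagen chaperone Serpinh1 fell, at -0.87 (SE 0.07) and -0.55 (SE 0.05) in the authors' deposited table. The 2 rises, named after their values were seen, were Pcolce2 (0.55) and Loxl4 (0.31) in the authors' deposited table. Col5a1 and Bmp1, the procollagen protease, did not pass, at -0.06 and -0.09 in the authors' deposited table.

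Small leucine-rich proteoglycans, which bind collagen fibrils, had 6 of 13 tested members lower (46.2%), none higher and a median of -0.41 in the authors' deposited table. Dcn (decorin) and Ogn fell, at -1.77 (SE 0.08) and -1.75 (SE 0.07), and Kera, Aspn, Prelp and Omd at -1.41 (SE 0.23), -0.87 (SE 0.06), -0.80 (SE 0.11) and -0.45 (SE 0.15) in the authors' deposited table. Biglycan (Bgn) did not pass, at -0.07 in the authors' deposited table. Of 21 tested other collagens 5 fell and 2 rose. The 3 microfibrillar chains Col6a3, Col6a2 and Col6a1 fell, at -0.39 (SE 0.07), -0.32 (SE 0.08) and -0.23 (SE 0.07), and Col12a1 rose by 0.41 (SE 0.08) in the authors' deposited table.

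Matrix glycoproteins were divided, with 17 of 41 tested members lower (41.5%) and 7 higher (17.1%). The median was -0.04, and -0.19 over the 37 members with a mean of at least 100, in the authors' deposited table. Npnt (nephronectin), a matrix gene that the list did not hold, rose by 2.37 (SE 0.08) in the authors' deposited table. The secreted protein gene Fibin fell, at -2.28 (SE 0.09), hyaluronan synthase Has2 at -1.10 (SE 0.10) and tenascin C (Tnc) at -0.81 (SE 0.05) in the authors' deposited table. The basement membrane genes Lama4 and Agrn fell, at -0.97 (SE 0.08) and -0.94 (SE 0.07), whereas Fbln5, which assembles elastic fibres, rose by 1.21 (SE 0.08) in the authors' deposited table. Fibronectin (Fn1) did not pass, at 0.14 in the authors' deposited table. Of 28 tested matrix proteases and inhibitors 15 fell (53.6%) and 4 rose (14.3%). Ctsk, a collagen-degrading cathepsin, fell, at -1.41 (SE 0.12), the aggrecanases Adamts1 and Adamts5 at -0.90 (SE 0.09) and -0.74 (SE 0.06), and the membrane collagenase Mmp14 at -0.62 (SE 0.06) in the authors' deposited table. Mmp19, another metalloprotease, rose by 0.95 (SE 0.09) in the authors' deposited table.

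**Figure D4:**
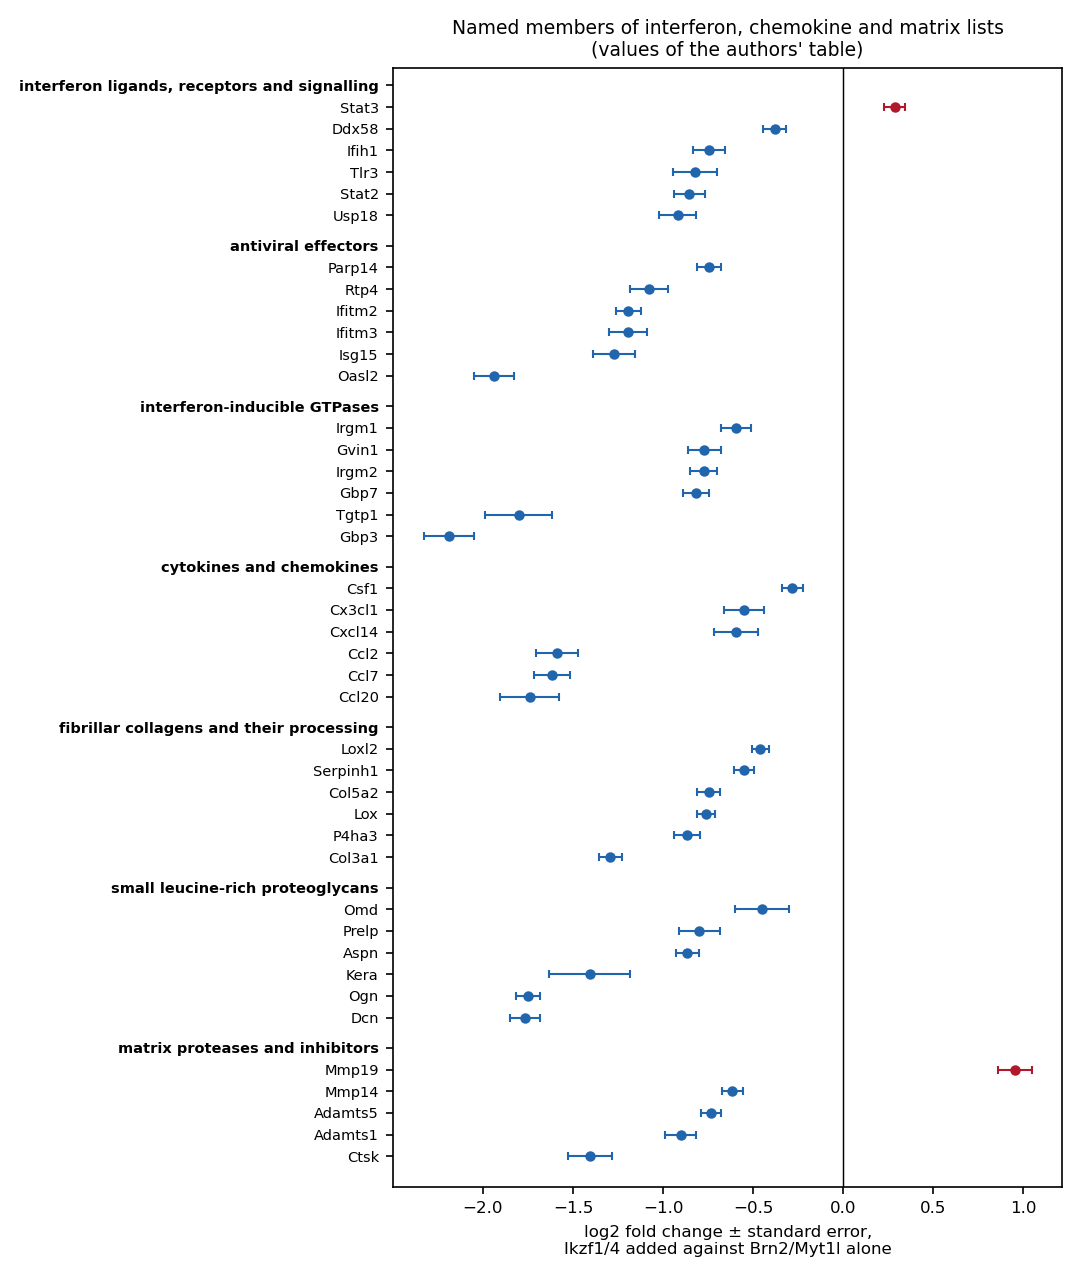
Points are log2 fold changes in the authors' deposited table (x axis, bars standard errors) of called members among those with the smallest adjusted p in 7 interferon, chemokine and matrix lists. All points shown lie to the left of 0, lower with Ikzf1/4, except Stat3 (0.28) and Mmp19 (0.95), while rises with larger adjusted p in these lists, such as Oasl1 (0.81) and Pcolce2 (0.55), are not drawn, nor are related lists with rises such as Fbln5 (1.21), Erap1 (0.82) and Col12a1 (0.41).

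Of 20 fibroblast markers, 13 fell (65.0%), none rose and the median was -0.38 in the authors' deposited table. Beside Col3a1 and Dcn, given above, the surface marker Thy1 fell, at -0.53 (SE 0.07) and the matrix protein gene Postn at -0.63 (SE 0.08) in the authors' deposited table. Fn1 and Pdgfra, also markers of fibroblasts, did not pass, at 0.14 and 0.03 in the authors' deposited table. Of these 20 markers 15 are also in other lists here, so the list is no separate evidence.

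Transcription factors of mesenchyme were mixed, with 10 of 33 tested members higher (30.3%) and 6 lower (18.2%). Snai2, a factor of epithelial-mesenchymal transition, fell, at -0.79 (SE 0.08), Ebf1 at -0.95 (SE 0.10) and Prrx1, a factor of limb and connective tissue mesenchyme, at -0.57 (SE 0.06) in the authors' deposited table. Runx2, the master factor of bone, Ebf3 and Zeb2 rose by 0.78 (SE 0.12), 0.67 (SE 0.10) and 0.36 (SE 0.06) in the authors' deposited table. Twist1 did not pass, at -0.05 in the authors' deposited table. Contractile genes of smooth muscle had 7 of 22 tested members lower (31.8%) and 3 higher (13.6%). Acta2 (smooth muscle actin) fell, at -0.50 (SE 0.06), Lmod1, Tpm1, Tpm2 and Tagln at -0.35 (SE 0.08), -0.32 (SE 0.06), -0.23 (SE 0.05) and -0.21 (SE 0.05), and Cnn1 rose by 0.36 (SE 0.06) in the authors' deposited table. Of 11 tested genes of skeletal and cardiac muscle 2 rose, Mef2c (0.51) and Ttn (0.80), and none fell in the authors' deposited table.

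Targets and factors of the growth regulators YAP and TEAD numbered 17 tested, with 5 higher and 4 lower. Ccn2, a classical target, fell, at -1.09 (SE 0.08), the targets F3 and Ankrd1 at -0.75 (SE 0.08) and -0.42 (SE 0.10), and Tead2 at -0.84 (SE 0.10) in the authors' deposited table. Tead1 and Crim1 rose by 0.30 (SE 0.07) and 0.35 (SE 0.07), and Ccn1, the other classical target, stood at -0.00 (SE 0.09) in the authors' deposited table. Immediate early genes had 8 of 27 members higher and 8 lower. Myc fell, at -1.04 (SE 0.08), Btg2 at -0.56 (SE 0.07), Dusp4 at -0.41 (SE 0.09) and Klf6 at -0.29 (SE 0.05), while Nr4a2 and Maff rose by 0.62 (SE 0.12) and 0.40 (SE 0.07) in the authors' deposited table.

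Among signalling pathways, that of TGF-beta and BMP had the most calls, with 17 of 47 tested members higher (36.2%) and 10 lower (21.3%). Vwc2l, an extracellular BMP modulator and the largest rise after the added factors among genes with a mean of at least 100, rose by 3.26 (SE 0.19) in the authors' deposited table. The BMP effector Smad9 rose by 1.43 (SE 0.11), the BMP antagonist Grem1 by 0.75 (SE 0.09) and the repressor Skil by 0.59 (SE 0.07) in the authors' deposited table. The antagonist Fst (follistatin) fell, at -0.76 (SE 0.08) in the authors' deposited table. In the Notch pathway 6 of 24 tested members rose and 2 fell. The non-canonical ligand Dlk1 rose by 1.72 (SE 0.11), the receptor Notch1 by 0.46 (SE 0.09) and the target Hey1 by 0.80 (SE 0.16), while the ligand Jag1 fell by 0.63 (SE 0.07) in the authors' deposited table. Hes1, another target, did not pass, at -0.20 in the authors' deposited table.

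The Wnt pathway had 10 of 45 tested members lower and 6 higher. The matricellular genes Ccn5 and Ccn4 fell, at -1.27 (SE 0.13) and -0.36 (SE 0.06), the Wnt agonist Rspo2 at -0.92 (SE 0.12) and the receptor Fzd4 at -0.60 (SE 0.09) in the authors' deposited table. The ligands Wnt11 and Wnt9a rose by 1.12 (SE 0.18) and 0.70 (SE 0.10) in the authors' deposited table. In the Hedgehog pathway 2 of 10 tested members rose and 2 fell, all of them proteins that bind the ligand: Cdon and Hhip rose by 0.67 (SE 0.07) and 0.73 (SE 0.21), and Gas1 and Boc fell, at -1.10 (SE 0.17) and -0.55 (SE 0.11) in the authors' deposited table. Of 40 tested growth factor genes 6 rose and 7 fell, shares near those of all genes. Fgf7, Fgf10 and Pdgfd fell, at -0.74 (SE 0.13), -0.73 (SE 0.14) and -0.57 (SE 0.08), and Hgf rose by 0.69 (SE 0.11) in the authors' deposited table.

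Genes of growth arrest and of the p53 response rose more often than all genes, with 14 of 32 higher (43.8%), 5 lower (15.6%) and a median of 0.15 in the authors' deposited table. Cdkn1c, which encodes the cyclin-dependent kinase inhibitor p57, rose by 1.85 (SE 0.11), Rb1 by 0.42 (SE 0.08) and the death-related p53 targets Perp, Pmaip1 and Fas by 1.10 (SE 0.09), 0.98 (SE 0.08) and 0.58 (SE 0.09) in the authors' deposited table. Eda2r, another p53 target, fell by 0.62 (SE 0.05) in the authors' deposited table. Of 46 tested DNA replication genes 9 rose (19.6%) and 2 fell (4.35%). The helicase subunits Mcm2 and Mcm4 rose by 0.42 (SE 0.07) and 0.24 (SE 0.06), cyclin Ccne2 by 0.52 (SE 0.09) and histone mRNA binding Slbp by 0.44 (SE 0.07) in the authors' deposited table. Of 42 mitotic genes 3 rose, Espl1, Kif20b and Bub3 (0.91, 0.33 and 0.16), and none fell in the authors' deposited table. The proliferation markers Mki67 and Top2a did not pass, at 0.13 (SE 0.11) and 0.03 (SE 0.09) in the authors' deposited table.

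Stress genes of the heat shock and unfolded protein responses had 12 of 30 members higher (40.0%) and 3 lower (10.0%). The chaperones Hspa1a and Hspa1b, near-identical copies, rose by 1.18 (SE 0.13) and 0.61 (SE 0.10), Dnajb1 by 0.45 (SE 0.07) and Hsp90aa1 by 0.25 (SE 0.04) in the authors' deposited table. Atf4 and Ddit3, factors of the integrated stress response, rose by 0.37 (SE 0.05) and 0.60 (SE 0.08), while Hspa5, the main chaperone of the endoplasmic reticulum, did not pass, at -0.01 (SE 0.04) in the authors' deposited table. Of 25 tested genes of oxidative stress 6 rose and 5 fell, the largest being the glutathione transferase Gstm2, which fell by 1.29 (SE 0.10) in the authors' deposited table.

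Metabolic lists moved little in size. Cholesterol and fatty acid synthesis had 10 of 34 genes lower (29.4%) and 2 higher (5.88%), with a median of -0.12 in the authors' deposited table. Fads1, Scd1 and Tm7sf2 fell, at -0.36 (SE 0.06), -0.39 (SE 0.09) and -0.48 (SE 0.11) in the authors' deposited table. Oxidative phosphorylation had 12 of 32 genes lower (37.5%) and 2 higher, with a median of -0.08 in the authors' deposited table. Uqcrb fell, at -0.49 (SE 0.06) and Atp5b at -0.18 (SE 0.04), while Ppargc1a, a coactivator of mitochondrial genes at a mean of 135, rose by 1.97 (SE 0.19) in the authors' deposited table. Glycolysis and hypoxia had 4 of 31 genes higher and 4 lower. Ribosomal protein genes had 7 of 39 lower, 1 higher and a median of -0.04, the largest being Rpl5, which fell by 0.33 (SE 0.06) in the authors' deposited table.

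Positional and lineage genes changed in both directions. Of 35 tested Hox genes, which encode position along the body axis, 10 fell (28.6%) and 6 rose (17.1%). The Hoxb cluster genes Hoxb5, Hoxb9, Hoxb6 and Hoxb4 fell, at -0.73 (SE 0.08), -0.69 (SE 0.06), -0.63 (SE 0.10) and -0.43 (SE 0.09), while the distal genes Hoxa13 and Hoxc13 rose by 1.36 (SE 0.23) and 0.998 (SE 0.17) in the authors' deposited table. Of 33 symbols of imprinted genes listed, 25 were found in the authors' deposited table, H19 and Meg3 being among those that were not. The symbols not found also include Zac1, another name of Plagl1, so 33 is not a count of separate genes. Of the 25 found, 6 rose and 3 fell. Beside Cdkn1c, Dlk1 and Dcn above, Plagl1 and Asb4 rose by 0.84 (SE 0.08) and 0.85 (SE 0.19), and Ppp1r9a fell, at -0.59 (SE 0.11) in the authors' deposited table. In the placental and prolactin family, whose prolactin members are close copies, 4 of 17 tested members rose and 2 fell. Prl3a1 rose by 2.96 (SE 0.13), whereas Peg10 fell by 1.16 (SE 0.16) in the authors' deposited table. Prolactin itself (Prl), which the list did not hold, fell by 1.73 (SE 0.21) in the authors' deposited table. Of 27 tested genes of bone, cartilage and fat 4 rose and 3 fell, among them the cartilage link protein Hapln1 (2.07, SE 0.22) and the tendon factor Mkx (-1.45, SE 0.15) in the authors' deposited table.

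Ikzf1 is known from blood cells, but lymphoid and other haematopoietic genes showed few calls. Of 40 listed genes 22 were tested, 1 rose and 1 fell, with a median of -0.00 in the authors' deposited table. Only 12 of those tested had a mean of at least 100, and genes at low levels were called less often. Gata2 rose by 0.31 (SE 0.09) and Bcl11b fell by 0.58 (SE 0.13) in the authors' deposited table. The Ikaros-dependent lymphoid genes Rag1 and Dntt had no adjusted p, and Dntt was listed at a mean of 0 in the authors' deposited table.

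Markers of other cell types that embryonic fibroblast cultures can hold were read for the same reason. Epithelial markers were higher in 4 of 9 tested members and lower in none: Dsp by 1.68 (SE 0.17), Perp by 1.10 (SE 0.09), Epcam by 0.64 (SE 0.22) and Krt19 by 0.61 (SE 0.17) in the authors' deposited table. Perp is also among the p53 targets given above. The median was 0.44 over the 9 tested and 0.08 over all 18 members in the authors' deposited table. The other 9 of 18 listed were not tested, and the defining keratins Krt5, Krt8 and Krt14 were at means of 3.61, 1.34 and 0.164 in the authors' deposited table. Endothelial markers had 1 of 12 lower, Flt1 (-0.76, SE 0.08), and Pecam1 did not pass (0.05, SE 0.17) in the authors' deposited table. Schwann cell and melanocyte markers had 1 of 14 higher, Cdh19 (1.31, SE 0.14), and 1 lower, Mitf (-0.37, SE 0.14), while Sox10 was at a mean of 1.497 in the authors' deposited table. Pericyte markers had 1 of 10 higher, Mcam (0.76, SE 0.05), and 2 lower, Rgs5 (-0.62, SE 0.14) and Pdgfrb (-0.32, SE 0.08), in the authors' deposited table. The part of these cell types in the results above was not tested.

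Some of the largest changes lay outside the lists. Among rises, Slitrk4, a synaptic adhesion protein, moved by 2.99 (SE 0.18), Npnt (nephronectin), a matrix ligand of integrins, by 2.37 (SE 0.08) and Shisa6, an auxiliary protein of AMPA receptors, by 2.26 (SE 0.17) in the authors' deposited table. Fgl2, a fibrinogen-like protein, Pgr15l, an orphan receptor, and Rec8, a meiotic cohesin, rose by 2.63 (SE 0.15), 2.64 (SE 0.15) and 2.39 (SE 0.22), and Ckmt1, a mitochondrial creatine kinase, by 2.16 (SE 0.18) in the authors' deposited table. The largest fall was that of Gc (ENSMUSG00000035540), the vitamin D binding protein, at -2.88 in the authors' deposited table (SE 0.13 and a DESeq2 adjusted p of 4.63e-98). The neuronal adhesion genes Cntn6 and Cntnap3 fell, at -2.07 (SE 0.18) and -1.74 (SE 0.16), Tle6, a relative of the Groucho corepressors, at -2.02 (SE 0.17) and Ndst4, a heparan sulphate modifying enzyme, at -1.86 (SE 0.19) in the authors' deposited table. The unnamed locus 4933403O08Rik rose by 2.11 (SE 0.18) in the authors' deposited table.

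The Ikaros core TGGGAA, which can share bases with the interferon element, was searched in the same way. It was present in 21.5% of 27025 promoters. It was in 17.7% of the promoters at hand of genes that rose, in 21.8% of those of genes that fell, in 37 of 104 (35.6%) of those of genes that fell by more than 1, and in 24 of 151 (15.9%) of those that rose by more than 1. Promoters were at hand for 75.6%, 77.2%, 68.0% and 72.6% of these 4 sets, so the shares are void as a check for the reason above. By list, the core was in 3 of 18 antiviral effectors that fell, in 7 of 17 that did not, in 3 of 9 interferon-inducible GTPases that fell (4 of 10 in all), and in 13 of 20 (65.0%) of MHC class I presentation, whose median change was 0.03 in the authors' deposited table. The promoters of Gc and Ccl20, among the 15 largest falls, were chosen for their matches and are shown in the same way with the core in capitals, 2 matches in Gc and 1 in Ccl20.
Gc (chr5:89457899-89458098, minus strand): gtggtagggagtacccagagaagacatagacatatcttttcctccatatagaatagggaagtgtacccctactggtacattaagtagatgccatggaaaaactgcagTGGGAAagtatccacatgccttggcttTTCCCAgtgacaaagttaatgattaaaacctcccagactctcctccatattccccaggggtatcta
Ccl20 (chr1:83116566-83116765, plus strand): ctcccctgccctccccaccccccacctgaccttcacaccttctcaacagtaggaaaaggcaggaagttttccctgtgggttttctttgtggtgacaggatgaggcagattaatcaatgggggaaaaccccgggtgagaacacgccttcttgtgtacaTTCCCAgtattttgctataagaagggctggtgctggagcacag

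Calls also varied with the length of the gene. Protein-coding genes were put in 5 equal groups by their span in RefSeq (GRCm38.p6). The share called higher was 9.43% in the shortest group (0.334 to 7.625 kb), then 11.7%, 14.5% and 19.03%, and 24.9% in the longest (from 74.7 kb). The share called lower showed no such order, at 15.7%, 18.96%, 16.1%, 14.6% and 16.0%. Long genes can carry more reads, and calls rise with reads, so the split was repeated among genes with a mean of at least 1000 normalised counts. There the share higher went from 12.1% to 29.3% and the share lower from 24.8% in the shortest group to 19.7% in the longest. The medians were -0.05 and 0.04 in the shortest and longest of these groups in the authors' deposited table. Among transcripts, split by their own length with gene span not held fixed, edgeR's calls rose with length in both directions, from 0.976% to 8.94% higher and from 0.999% to 4.08% lower. The cause of this relation was not tested.

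**Figure D5:**
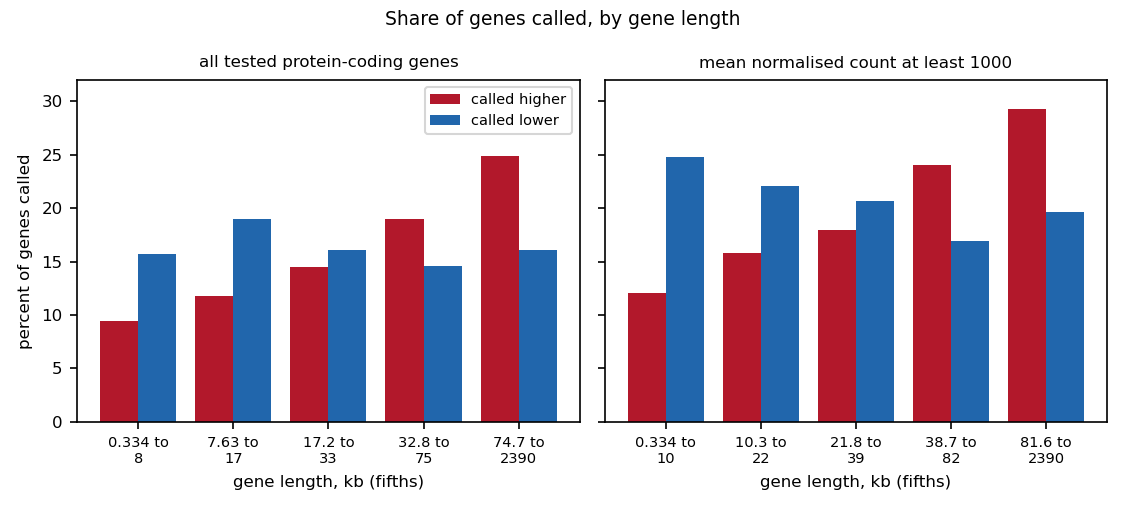
Bars give the percent of protein-coding genes called higher (red) or lower (blue) in the authors' deposited table in 5 equal groups by gene length (x axis, kb), for all tested genes (left) and for genes with a mean of at least 1000 normalised counts (right). The share called higher grows from 9.43% to 24.9% on the left and from 12.1% to 29.3% on the right.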

How the data were processed

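Poly(A) RNA libraries (KAPA RNA HyperPrep, per the labels' protocols) were quantified with Salmon and compared with DESeq2, per the submitters' processing notes. No source used here gives versions, the role of the listed builds mm9 and mm10, or any shrinkage of fold changes. Genes with very few reads had small standard errors in the authors' deposited table. Ikzf3, at a mean of 1.37, had 0.08, and Igtp, at a mean of 1181, had 0.09. Fold changes of such genes may have been drawn towards 0, so a value near 0 there does not measure an absence of change. The authors deposited, per transcript, an estimated count and a TPM, and per gene 1 table with a mean normalised count (a signal), log2 fold change, its standard error, a Wald score, p-value and adjusted p-value. Estimated counts were rounded and tested per transcript with edgeR 4.0.16 (R 4.3.3, filterByExpr, TMM, quasi-likelihood, Benjamini-Hochberg adjustment at 0.05), since no source here pairs transcripts with genes. TPM was only read for the named transcripts. The SE of a transcript is the size of its log2 difference divided by the square root of edgeR's F statistic. It is not the same measure as the authors' SE of a gene. In simulated counts for 43526 transcripts, changes were put in 100 transcripts of each size, all averaging at least 1 CPM. The test recovered 38% and 41% of changes of 1 and 2 on the log2 scale. Its 6 false calls were 7.06% of its calls. The simulation held far fewer changes than the 3095 calls of the real comparison, which makes the adjustment stricter. These shares therefore do not measure what the test recovers in the real data. Genes were called at the authors' adjusted p under 0.05 and read through 50 lists. The members and lists were chosen with earlier results of these data known. Named were the added factors, the 15 largest rises and falls at a mean of at least 100, up to 6 called members per list by adjusted p with defining members that did not pass, and the 6 largest rises and falls of transcripts. Alternatives were DESeq2 1.42.0, limma 3.58.1 (voom), other scalings and filters, a replicate block and leaving out each library. Gene spans and promoters came from RefSeq (GRCm38.p6), matched by symbol for 96.9% of 16742 tested symbols, of which 73.9% had a promoter. Results of a few genes are not reported here, and list counts include them.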

Additional observations from a re-analysis of the deposited data

How the results depend on the processing

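The number of called transcripts depended on the processing. Without the filter on low counts edgeR called 1849 (1088 higher, 761 lower), DESeq2 called 7529 (4240 higher, 3289 lower), and a test against a fold of 1.5 left 269 (166 higher, 103 lower). Leaving out each library in turn gave 728 to 1701 calls, 411 to 1113 higher and 317 to 588 lower. With the replicate block 8 were called (5 higher, 3 lower). Over all tested transcripts, deviations from the group means had r of -0.0172, -0.000523 and 0.00531 between same-numbered libraries. Other pairs across groups had -0.0133 to 0.0140. Many of these transcripts had low counts, so this measure cannot tell whether the numbers pair libraries. Of the 12 named transcripts 11 lost their call with this block (edgeR adjusted p 0.0514 to 0.133), at log2 fold changes close to those without it (8.52 against 8.49 for the largest rise, and -2.80 against -2.66 where they differed most). Other scalings, a minimum of 1 CPM and voom gave 2959 to 3706 calls. In the authors' deposited table, requiring a change over 1 on the log2 scale left 361 genes (208 higher, 153 lower), and over 0.5 left 1715 (890 higher, 825 lower). Of 100 list medians under other filters 92 moved by less than the median standard error of their members and 8 by more, and the share called higher among the longest genes went from 24.9% to 29.3% at a mean of at least 1000, a limit chosen after seeing the data.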

Other observations

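After their values were seen, 12 runs of at least 5 neighbouring tested genes, all called in 1 direction, were found among 16219 genes placed by RefSeq (GRCm38.p6), 4 runs higher and 8 lower, with 69 of the 5133 called genes in all. How many such runs chance would give was not tested. A run on chromosome 11 held interferon-inducible GTPase genes that fell, from Ifi47 (-1.06) and Tgtp1 (-1.80) to Tgtp2 (-0.53) in the authors' deposited table. Another, on chromosome 1, held the interferon-inducible genes Ifi204 (-0.56), Mndal (-0.78), Ifi211 (-0.71), Ifi203 (-0.47) and Ifi205 (-0.81) in the authors' deposited table. These neighbours are close copies of each other, between which reads can be exchanged. A higher run on chromosome 1 reached from Mstn, the muscle growth inhibitor myostatin (1.80), to Stk17b (0.50) in the authors' deposited table.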
